A study of Rattus norvegicus with 3 samples.

Results

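The genes described here are 50 cytokines, chemokines, their receptors, and the adaptors, kinases, transcription factor subunits and inhibitors of the NF-kB pathway, measured in rat ovarian granulosa cells. They were listed by gene symbol, and every probe set that the platform annotation gives to one of these symbols alone was taken, on all 3 arrays. Of the 50 genes, 47 had 64 such probe sets, out of 14218 named genes and 31099 probe sets in all; Il13ra1, Rel and Nfkbie had none and were not analysed here. A gene was read from its brightest probe set. The floor was a signal of 126, the median of the whole data set, and 34 of the 47 genes were above it on at least 1 array and 22 on all 3.

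Granulosa cells for all 3 groups were taken, 48 h after PMSG, from Sprague-Dawley females that were immature, at an age of 24 to 25 days (PMSG is pregnant mare serum gonadotropin, which drives follicles to preovulatory size). All had been infected with an adenovirus at 50 pfu per cell, removed after 2 h. The control group, Ad-GFP, carried green fluorescent protein and received no stimulus. The group Ad-GFP + FSK/PMA carried the same virus and was given 10 uM forskolin (FSK, an activator of adenylyl cyclase) with 20 nM phorbol 12-myristate 13-acetate (PMA, an activator of protein kinase C) for 6 h, from 24 h after infection, in place of the ovulatory hormone signal. The group Ad-NFIL3 + FSK/PMA carried NFIL3, a basic leucine zipper repressor, and was given the same stimulus. Each group was 1 Affymetrix rat genome array of RNA pooled over 3 experiments, so there is no replicate error and no test, and each difference compares 2 pools. The effect of the NFIL3 virus without FSK/PMA was not analysed here.

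Cytokines and chemokines are secreted proteins that bind receptors on neighbouring cells and on leukocytes. Receptors of the IL-1, Toll-like and TNF families act through adaptors and kinases (MYD88, IRAK1, TRAF6, BIRC3) on the IkB kinase. NOD receptors act on it through RIPK2. The IkB kinase subunit IKBKB marks the IkB proteins (NFKBIA, NFKBIB) for destruction and so frees the NF-kB subunits to enter the nucleus. NF-kB in turn raises genes that shut it off, among them Nfkbia and Tnfaip3. Ovulation shares many steps with inflammation, and granulosa cells and the leukocytes that enter the follicle both make cytokines around that time.

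Array medians ran from 115 to 136, and 48.1% to 51.8% of probe sets exceeded the floor. Signals of 3 arrays are given below in the order control, FSK/PMA, NFIL3. Nfil3 itself had 564, 1321 and 5882, highest on the array labelled Ad-NFIL3. Granulosa cell markers were above the floor on at least 1 array for 12 of 13 genes, with summed signals of 130491, 137654 and 90410. Of these 12, 3 were at least 2-fold higher and 5 lower with FSK/PMA (median log2 difference -0.64), and 0 were higher and 4 lower with NFIL3 (median -0.51). Leukocyte markers were above it on 7, 8 and 11 of 28 genes in that order, with summed signals of 6503, 4666 and 5919, of which Cd48 made up 3328, 1568 and 2410. Ptprc, Itgam, Adgre1 and Cd3e stayed below the floor on all arrays, whereas 13 of the 28 genes were above it on at least 1. Lyz2 (1110, 769 and 970), Fcer1g (298, 285 and 337), Cd68 and Cd74 were above it on all 3. Csf1r (100, 125.8 and 157), Tyrobp (77.5, 75.1 and 136), Cpa3 (80.7, 48.4 and 154) and Cd53 (91.3, 122 and 181) were above it only with NFIL3. With FSK/PMA Csf1r and Cd53 lay just below the floor, which was 125.9 before rounding. Theca and stroma markers were above the floor on at least 1 array for 6 of 12 genes and endothelial markers for 2 of 8. Oocyte markers were above it for 1 of 5 and red cell markers for 2 of 2. The red cell markers had summed signals of 19937, 18366 and 15713, of which Hbb made up 19442, 18005 and 15376. Technical spread, read from genes with 2 measured probe sets, had a robust SD per log2 difference of 0.33 over 2549 genes for FSK/PMA and 0.23 over 2500 genes for NFIL3; it leaves out differences between cultures.

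**Figure D1:**
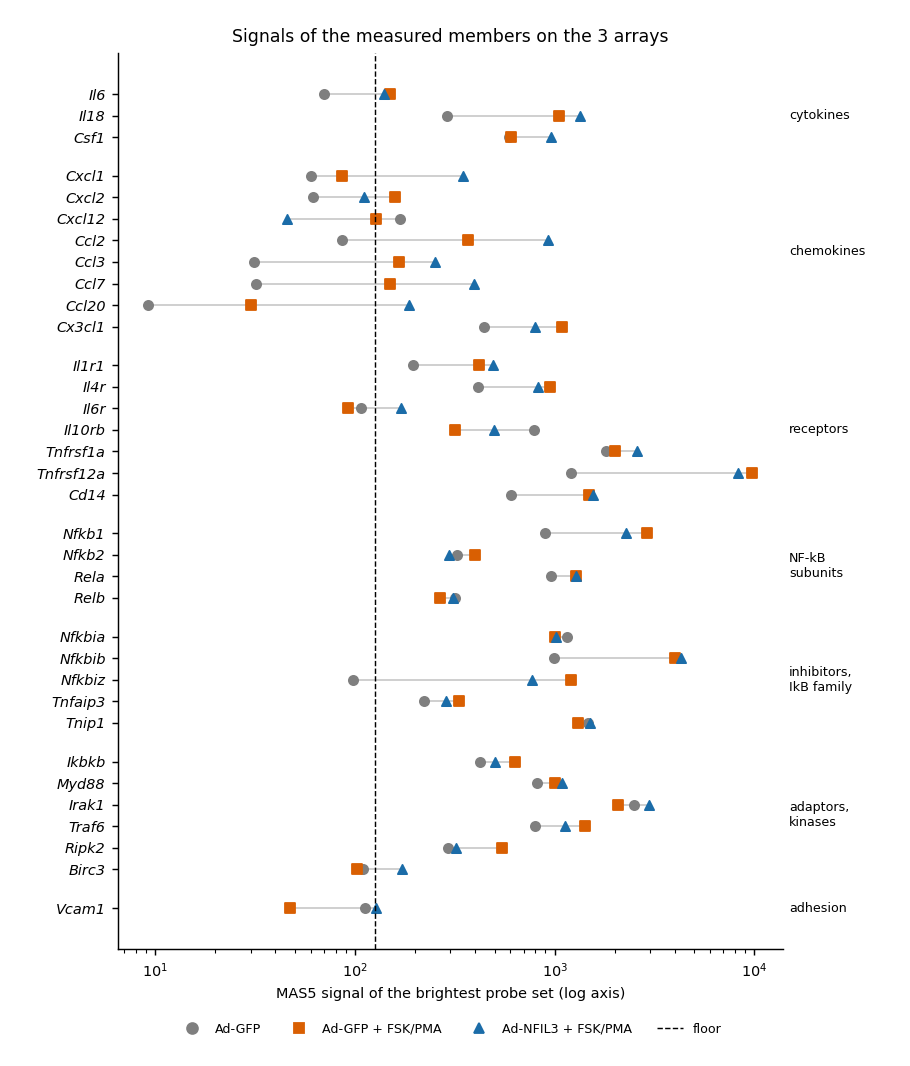
MAS5 signal (log axis) of the brightest probe set of each of the 34 genes above the floor on at least 1 array, with 1 point per array (circle Ad-GFP, square Ad-GFP + FSK/PMA, triangle Ad-NFIL3 + FSK/PMA) and the floor of 126 as a dashed line. Tnfrsf12a, Nfkbib, Nfkb1 and Nfkbiz lie far to the right of control on both stimulated arrays, whereas Ccl2, Ccl7, Cxcl1 and Ccl20 are highest on the Ad-NFIL3 array; levels of different genes come from different probes and are not compared.

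The first comparison set Ad-GFP + FSK/PMA against Ad-GFP and asks which of these genes differ after the stimulus. The largest differences were those of Nfkbiz, a nuclear IkB protein, at least 9.55-fold higher, and Tnfrsf12a, the TWEAK receptor, 8.11-fold higher. Nfkbib, an IkB protein, was 4.05-fold higher, the cytokine gene Il18 was 3.60-fold higher and Nfkb1, the p105/p50 subunit, was 3.22-fold higher. Of 29 measured genes, those with at least 1 of the 2 arrays above the floor, 10 were at least 2-fold higher and 1 was at least 2-fold lower. Across the array the share past 2-fold among 9395 measured genes was 7.43% for higher and 11.4% for lower. At 1.5-fold the counts were 12 higher and 1 lower, against 14.9% and 24% of all genes. The median log2 difference was 0.42 over the 29 genes and -0.10 over all genes; scaling the arrays to a common median moved the latter to 0.03 and the higher share of all genes past 2-fold from 39.4% to 50.1%. For 6 of the 29 genes 1 array was below the floor, so that the fold is a lower bound. These genes, Nfkbiz, Ccl2, Ccl3, Ccl7, Cxcl2 and Il6, counted as measured only through the FSK/PMA array. Their higher direction was therefore fixed by the floor, and Nfkbiz and Ccl2 are among the 10 higher genes.

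**Figure D2:**
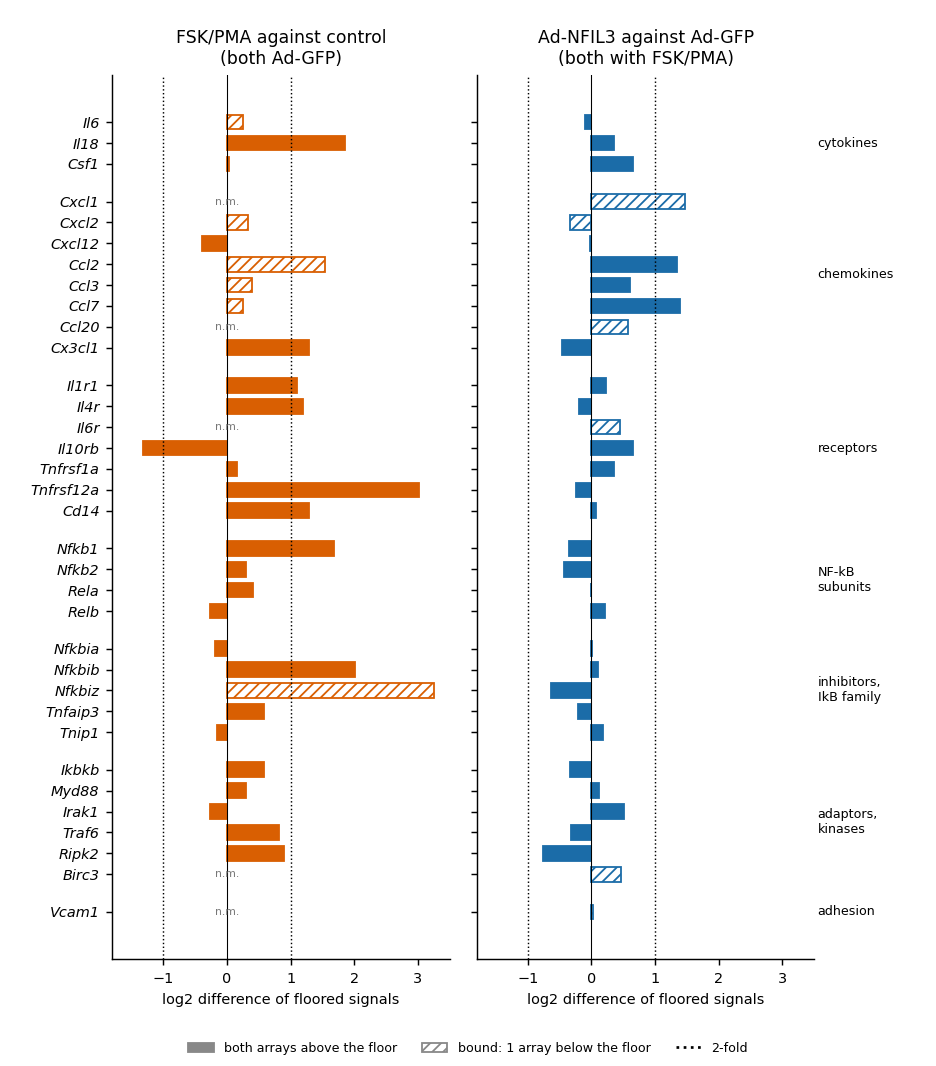
Log2 difference of floored MAS5 signals for the same 34 genes, with FSK/PMA against control on the left and the NFIL3 virus against the GFP virus under stimulus on the right; hatched bars are bounds, n.m. marks a gene below the floor on both arrays, and dotted lines stand at 2-fold. On the left 10 bars pass 2-fold upward and 1, Il10rb, downward, and on the right 3 pass upward and 0 downward.

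Secreted cytokines were mostly dim. Il18, a cytokine of the IL-1 family, had a control signal of 291 and a stimulated one of 1048. Csf1, the macrophage growth factor, had signals of 591 and 606, a log2 difference of 0.04 that turned to -0.18 when its 2 probe sets measured in this comparison were averaged. Il6 was below the floor on the control array (69.7) and just above it with FSK/PMA (150), at least 1.19-fold higher; with a floor of 62.9 its log2 difference was 1.10, past 2-fold. In this class 1 of 3 measured genes was past 2-fold.

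Of 6 chemokine genes measured, Ccl2 and Cx3cl1 were past 2-fold. Ccl2 encodes the monocyte attractant MCP-1 and went from a signal of 85.9 to 366, at least 2.91-fold higher. Cx3cl1, which encodes the membrane-bound chemokine fractalkine, had signals of 443 and 1088, 2.46-fold higher. Signals with FSK/PMA were 166 for Ccl3, 150 for Ccl7 and 158 for Cxcl2, each from below the floor on the control array, which gave bounds of 1.32-fold, 1.19-fold and 1.26-fold. With a floor of 62.9 all 3 passed 2-fold. Cxcl12, which attracts cells through CXCR4, was 1.31-fold lower, with signals of 168 and 128.

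Receptor genes held the most differences of any class, with 4 of 6 measured genes higher and 1 lower past 2-fold. Tnfrsf12a, which signals to NF-kB through TRAF proteins, had signals of 1206 and 9781. Cd14, the lipopolysaccharide co-receptor best known from monocytes, went from 606 to 1488, 2.46-fold higher, and 0 of 9 leukocyte markers measured in this comparison were at least 2-fold higher and 1 was at least 2-fold lower. Granulosa markers were past 2-fold higher for 3 and lower for 5 of 12 genes here. Whether cells other than granulosa cells contributed to Cd14 was not tested, and in RNA of bulk cultures fewer cells of a type and less RNA per cell cannot be told apart. Il4r, a chain of the interleukin 4 receptor, was 2.30-fold higher with signals of 412 and 947. Il1r1, the signalling receptor for IL-1, had signals of 196 and 418, 2.14-fold higher; its 2 other probe sets were below the floor throughout. Il10rb, a chain shared by receptors of the IL-10 family, had signals of 788 and 316, 2.49-fold lower. Tnfrsf1a, the main TNF receptor, had signals of 1809 and 2011, a log2 difference of 0.15, less than the technical SD of 0.33.

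None of the 5 measured adaptors and kinases was past 2-fold, and log2 differences ran from -0.27 to 0.89. Ripk2, the kinase downstream of NOD receptors, was the highest, with signals of 294 and 545, 1.85-fold higher. Traf6, the ubiquitin ligase downstream of IL-1 and Toll-like receptors, was 1.77-fold higher, and its 3 dimmer probe sets had log2 differences of 0.80, 0.73 and 0.36, the same direction in all 4. Ikbkb (424 and 635), Myd88 (813 and 1003) and Irak1 (2505 and 2085) had log2 differences of 0.58, 0.30 and -0.27.

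The NF-kB subunits differed among themselves. Nfkb1 had signals of 899 and 2896, whereas Rela (964 and 1286), Nfkb2 (324 and 399) and Relb (318 and 266) had log2 differences of 0.42, 0.30 and -0.26. Only Nfkb1 of these 4 was past 2-fold, as reported and in all 7 alternatives. The inhibitors also differed among themselves. Nfkbib had signals of 991 and 4013, while Nfkbia, the IkB protein classically induced by NF-kB, had signals of 1148 and 1003, a log2 difference of -0.19 within the technical SD. Nfkbiz, whose product IkB-zeta binds p50 in the nucleus and acts mainly as a coactivator, went from 97.5 to 1202. Its second probe set stayed below the floor on all arrays. Tnfaip3, which encodes the deubiquitinating enzyme A20, was 1.49-fold higher with signals of 222 and 332, and Tnip1, an A20-binding protein gene, had signals of 1468 and 1316, a log2 difference of -0.16.

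RefSeq promoter windows of build GRCr8, from 250 bases before to 50 bases after a gene's start, were found for 37 of the 47 genes. The window of Nfkbiz (chr11:58251471-58251770, plus strand) is shown because this gene had the largest difference with FSK/PMA. Capitals mark a match to the NF-kB consensus, which begins 13 bases before the start.
Nfkbiz: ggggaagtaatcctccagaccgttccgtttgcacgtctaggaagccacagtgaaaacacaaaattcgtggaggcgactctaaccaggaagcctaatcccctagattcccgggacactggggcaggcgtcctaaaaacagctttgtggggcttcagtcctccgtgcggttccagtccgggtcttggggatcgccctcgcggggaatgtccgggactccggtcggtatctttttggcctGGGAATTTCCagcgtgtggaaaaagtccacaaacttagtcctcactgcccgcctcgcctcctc

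The consensus was searched on both strands, and 14 of the 37 windows held a match, against 4.18% of all 33469 windows. These genes were listed as NF-kB pathway genes, so the share describes the list. Other members that encode NF-kB or IkB proteins held the following matches, shown on the gene's strand with 10 bases on either side: Nfkb1 (chr2:226805440-226805469, minus strand, starting 4 bases into the transcript), Nfkb2 (chr1:255108344-255108373, plus strand, 20 bases before the start) and Nfkbia (chr6:78597084-78597113, minus strand, 31 bases before the start).
Nfkb1: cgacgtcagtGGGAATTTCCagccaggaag
Nfkb2: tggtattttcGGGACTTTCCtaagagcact
Nfkbia: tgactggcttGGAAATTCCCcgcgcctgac

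Genes with and without a match both held members past 2-fold with FSK/PMA. Of 10 measured genes with a match 4 were at least 2-fold higher, with a median log2 difference of 0.45. Of 12 with a window and no match, 5 were at least 2-fold higher and 1 was lower, with a median of 0.36. A further 7 measured genes had no window, and of these only Ccl2 was past 2-fold. Nfkbia and Tnfaip3 held matches and were within 2-fold, and the windows of Tnfrsf12a and Nfkbib, both past 4-fold, held none. Windows were also searched for the NFIL3 sites TTACGTAA and TTATGTAA (0.12% and 0.893% of all windows), the cAMP response element TGACGTCA (1.83%) and the AP-1 site TGACTCA (4.63%). Among measured members these were found in 3 windows: the cAMP response element in that of Il6, the AP-1 site in that of Tnfaip3 and TTATGTAA, on the opposite strand, in that of Cd14.

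Among the members 13 gave no signal above the floor, among them the genes of IL-1 alpha, IL-1 beta and TNF. Il1a, Il1b, Il11, Lif, Tnf, Csf2, Ccl5, Il1rn, Il1rl1, Tnfrsf1b, Icam1, Tlr2 and Tlr4 were below it on all 3 arrays, with signals between 3.77 and 117 over 17 probe sets. For these 13 genes no difference can be given. Cxcl1, Ccl20, Il6r, Birc3 and Vcam1 were below the floor on both arrays of the FSK/PMA comparison and above it only on the Ad-NFIL3 array, where Vcam1, an adhesion molecule for leukocytes, reached 128, next to the floor (112 and 47.4 on the others). Control and FSK/PMA signals were 107 and 91.8 for Il6r and 109 and 102 for Birc3.

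**Figure D3:**
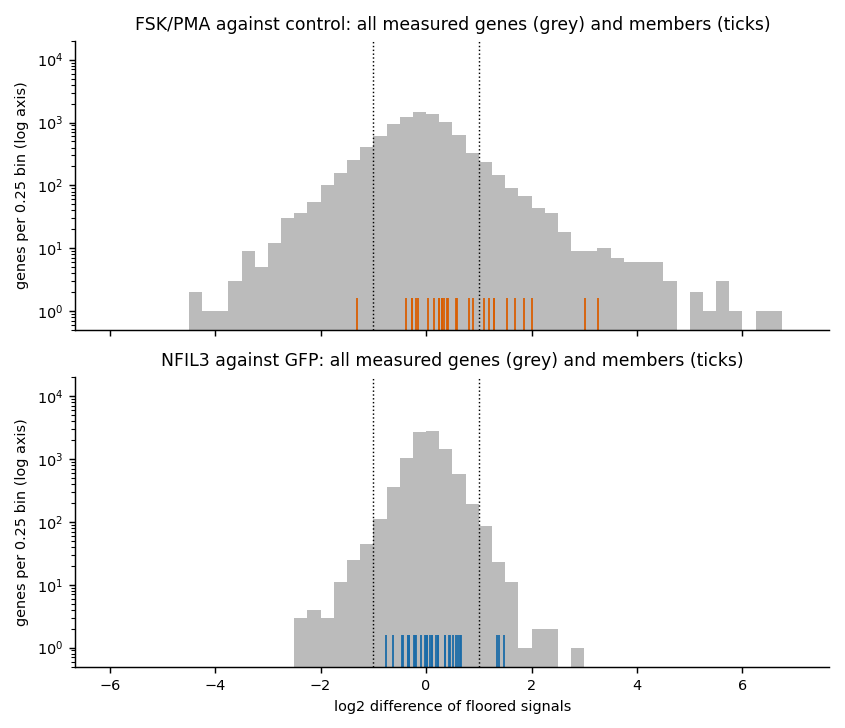
Histogram of log2 differences of all measured genes (grey, log axis, bins of 0.25), with a tick for each measured member, for FSK/PMA against control (9395 genes, 29 members) and for NFIL3 against GFP under stimulus (9397 genes, 34 members); dotted lines stand at 2-fold. Members spread to the right in the upper panel, with 10 beyond 2-fold. There 6 of the 29 values are bounds whose higher direction was fixed by the floor. In the lower panel 3 chemokine genes lie beyond 2-fold and the other 31 within it, and 7 of the 34 values are bounds.

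The second comparison set the stimulated Ad-NFIL3 array against the stimulated Ad-GFP array and asks which of these genes differ in stimulated cells when NFIL3 is overexpressed. The genes past 2-fold were 3 chemokines, all of them higher: Cxcl1 was at least 2.77-fold, Ccl7 2.62-fold and Ccl2 2.53-fold higher. None of the 34 measured genes was at least 2-fold lower, and the other 31 lay between -0.77 and 0.66 on the log2 scale. Across the array the share past 2-fold among 9397 measured genes was 1.34% for higher and 0.958% for lower. At 1.5-fold, 6 genes were higher and 2 lower, against 6.81% and 4.25% of all genes. The median log2 difference was 0.09 over the 34 genes and 0.03 over all genes. Scaling to a common median moved the latter to -0.20, gave the split 3 higher and 1 lower among the members, and changed the higher share of all genes past 2-fold from 58.3% to 20.2%; quantile normalisation gave 44.8%. Both comparisons use the Ad-GFP + FSK/PMA array, so any error on it enters them with opposite sign.

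Ccl2 had signals of 85.9, 366 and 925, higher at each step. From control to the NFIL3 array it was at least 7.35-fold higher. Its neighbour on the chromosome, Ccl7, which encodes the monocyte attractant MCP-3, followed the same order with signals of 31.9, 150 and 393. Cxcl1, a neutrophil attractant, was at 60.5 and 86.5 on the control and FSK/PMA arrays, both below the floor, and at 349 with NFIL3.

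Ccl20, the ligand of CCR6, had signals of 9.25, 30.3 and 186, so that it was above the floor only with NFIL3, a log2 difference of at least 0.57. Ccl3, which encodes MIP-1 alpha, was 1.52-fold higher with signals of 166 and 252. Ccl20 and Cxcl1 counted as measured only through the NFIL3 array, so that their direction was fixed by the floor. The same holds for Il6r, Birc3 and Vcam1. Cxcl2, whose gene lies next to Cxcl1 with no protein-coding gene between them, had the opposite sign, with signals of 158 and 110 across the floor, and Cx3cl1 was 1.37-fold lower with signals of 1088 and 793. Cxcl12 was at 128 and 45.5, next to and below the floor. Cxcl2 and Cxcl12 counted as measured only through the Ad-GFP + FSK/PMA array, so that their lower direction was likewise fixed by the floor. Leukocyte markers were above the floor for 8 genes with Ad-GFP and 11 with Ad-NFIL3, had a median log2 difference of 0.23 and were past 2-fold in 0 of 13 measured cases. Of the stroma markers 1 of 4 measured, Dcn (decorin), was past 2-fold, with signals of 196 and 481. Granulosa markers were past 2-fold lower for 4 of 12 genes and higher for 0, with a median of -0.51. The part of these lists in the chemokine differences was not tested.

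The promoter windows of Cxcl1 (chr14:17479272-17479571, minus strand) and Ccl7 (chr10:67513845-67514144, plus strand) are shown because these genes had the 2 largest reported differences with NFIL3. That order depends on the floor: with a floor of 62.9 Ccl20 (at least 1.57 on the log2 scale) was above Ccl7 (1.39). Capitals again mark the NF-kB consensus. In Cxcl1 overlapping matches on both strands begin 84 bases before the start; the Ccl7 window held none of the motifs searched.
Cxcl1: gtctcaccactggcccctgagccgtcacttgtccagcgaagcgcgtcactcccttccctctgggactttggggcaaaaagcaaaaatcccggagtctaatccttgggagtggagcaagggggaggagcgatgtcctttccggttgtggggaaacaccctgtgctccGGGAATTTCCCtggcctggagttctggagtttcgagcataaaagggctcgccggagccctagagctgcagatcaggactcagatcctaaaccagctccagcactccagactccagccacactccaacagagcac
Ccl7: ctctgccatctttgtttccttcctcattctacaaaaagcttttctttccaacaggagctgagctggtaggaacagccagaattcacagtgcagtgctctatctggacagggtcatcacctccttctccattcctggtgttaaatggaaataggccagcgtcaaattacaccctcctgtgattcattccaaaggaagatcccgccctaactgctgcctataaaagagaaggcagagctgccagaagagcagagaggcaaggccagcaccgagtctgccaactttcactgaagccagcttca

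The matches of 2 further chemokine genes are given beside that of Cxcl1, since the 3 genes differed with NFIL3 in unlike ways: Cxcl2 (chr14:17467309-17467339, minus strand, 74 bases before the start) and Ccl20 (chr9:91837060-91837089, plus strand, 89 bases before the start).
Cxcl2: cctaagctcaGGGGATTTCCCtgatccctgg
Ccl20: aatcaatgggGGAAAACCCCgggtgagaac

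Cxcl1 and Ccl20 were higher on the Ad-NFIL3 array and Cxcl2 was not, each in a direction fixed by the floor. The contrast between them was therefore not tested. Over all 13 measured genes with a match the median log2 difference was -0.10, with 1 past 2-fold. Over 13 genes with a window and no match it was 0.12, also with 1 past 2-fold. The gene with a match past 2-fold was Cxcl1, which counted as measured only through the NFIL3 array, as did Ccl20 and Vcam1. Another 8 measured genes had no window, among them Ccl2, which was past 2-fold.

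Cytokines and receptors differed less. Csf1 had signals of 606 and 955, 1.58-fold higher, and the log2 differences of its 2 dimmer measured probe sets were 0.34 and at least 0.32. Il10rb, the receptor gene that was lower with FSK/PMA, had signals of 316 and 497, 1.57-fold higher with NFIL3, and stayed below its control signal of 788. Il18 (1048 and 1339) and Tnfrsf1a (2011 and 2581) were both 1.28-fold higher. Cd14 (1488 and 1562), Il1r1 (418 and 490), Il4r (947 and 830) and Tnfrsf12a (9781 and 8311) had log2 differences of 0.07, 0.23, -0.19 and -0.23, about the technical SD of 0.23 or less. Median scaling turned the sign of Cd14 and Il1r1. Il6 (150 and 139) differed by -0.10 on the log2 scale. Il6r, the IL-6 receptor, was at least 1.36-fold higher with a signal of 171 on the Ad-NFIL3 array. Il6r counted as measured only through that array, so that its direction was fixed by the floor.

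In the NF-kB pathway itself Ripk2 and Nfkbiz had the lowest values, both within 2-fold as reported; median scaling put Ripk2 past it. Ripk2 had signals of 294, 545 and 321, 1.70-fold lower with NFIL3 and near its control level. Nfkbiz was 1.55-fold lower, with signals of 1202 and 775, and still at least 6.15-fold above control. Nfkb2 (399 and 295) and Nfkb1 (2896 and 2278) were 1.35-fold and 1.27-fold lower, and Ikbkb (635 and 503), Traf6 (1413 and 1130) and Tnfaip3 (332 and 285) had log2 differences of -0.34, -0.32 and -0.22. The 3 dimmer Traf6 probe sets had -0.46, -0.35 and 0.04.

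Other genes of the pathway were higher or level. Irak1, a kinase next to MYD88, had signals of 2085 and 2985, 1.43-fold higher, with a dimmer probe set at 0.60 on the log2 scale. Birc3, a ubiquitin ligase of TNF receptor complexes, was at least 1.37-fold higher with a signal of 173, a direction fixed by the floor. Nfkbib (4013 and 4317), Nfkbia (1003 and 1012), Rela (1286 and 1276), Relb (266 and 309), Tnip1 (1316 and 1500) and Myd88 (1003 and 1090) had log2 differences between -0.01 and 0.22, and the sign of each of these 6 turned under another scaling of the arrays.

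**Figure D4:**
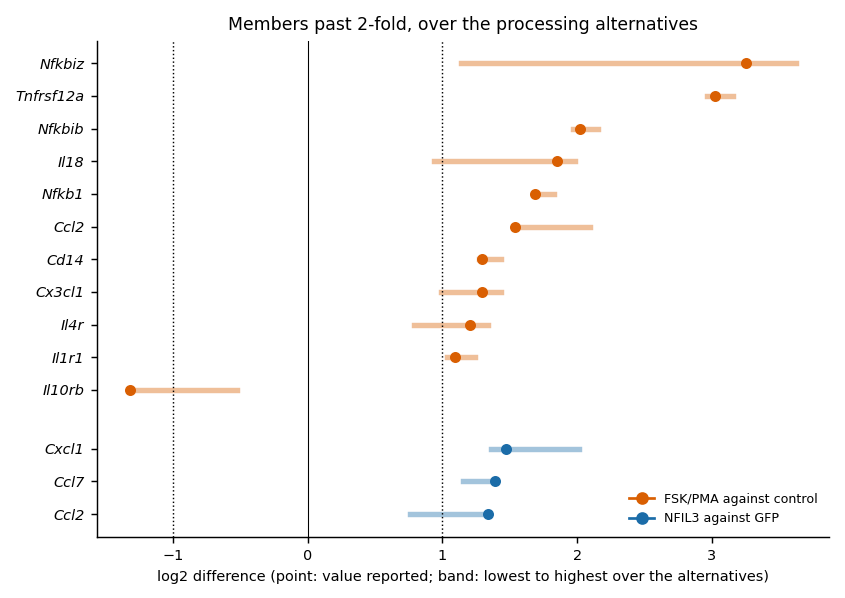
Log2 difference of the 11 genes past 2-fold with FSK/PMA (orange) and the 3 past 2-fold with NFIL3 (blue), with the reported value as a point and the lowest to highest value over the processing alternatives that measured the gene as a band; dotted lines stand at 2-fold. No band reaches 0, and those of Cx3cl1, Il4r, Il18 and Il10rb with FSK/PMA and Ccl2 with NFIL3 reach inside 2-fold. For Nfkbiz and Ccl2 with FSK/PMA and Cxcl1 with NFIL3 the direction was fixed by the floor.

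Other genes of cytokine signalling and NF-kB, which are not among the 50, were read from a list of 122 names, 109 of them on the array. Past 2-fold with FSK/PMA were 8 higher (15.7%) and 4 lower (7.84%) of 51 measured, against 7.43% and 11.4% of all measured genes. The highest were Ptgs2, the inducible cyclooxygenase, at least 52.8-fold, Tgfb1, the growth factor TGF beta 1, 6.16-fold, Ier3 at 4.32-fold, Zfp36, an mRNA-destabilising protein gene, at 3.97-fold, Sod2, mitochondrial superoxide dismutase, at 3.75-fold, and the B cell attractant Cxcl13 at 3.41-fold. The 4 lower genes were Plau, urokinase, at 5.82-fold, Bcl2l1, which encodes BCL-XL, at 2.97-fold, the adaptor gene Tradd at 2.45-fold and Irf1 at 2.42-fold. None of the 20 measured adaptors, kinases and ubiquitin enzymes of this list was at least 2-fold higher. Genes listed as NF-kB targets stood at both ends, with 4 of 8 measured higher and 3 lower.

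With NFIL3, past 2-fold were 3 higher (5.26%) and 1 lower (1.75%) of 57 measured genes of that list. Over all measured genes these shares were 1.34% and 0.958%. Cxcr4, the receptor of CXCL12, had signals of 82.5, 303 and 878, 2.90-fold higher with NFIL3. Tnfrsf11b, the decoy receptor osteoprotegerin, was 2.23-fold and the chemokine gene Cxcl14 2.11-fold higher, and Ptgs2 was 3.96-fold lower.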

How the data were processed

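RNA of 3 groups of granulosa cells, 1 array each, was measured on Affymetrix rat genome arrays. The authors deposited 1 linear intensity per probe set, made with MAS5 per the submitters' processing notes, which name no version here. Trimmed of 2% at each end, every deposited column had a mean of 500. Arrays were brought to a common 2% trimmed mean, lower signals were raised to a floor of 126 before taking log2.

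The platform annotation named the probe sets: 20832 had 1 gene symbol, 436 several and 9831 none. Symbols were updated by Entrez ID with RefSeq (GRCr8), in which 20764 matched. A gene was read from its brightest probe set and counted as measured when at least 1 of the 2 arrays compared was above the floor. Differences past 2-fold were counted without a test, since each group has 1 array, and precision is limited by that number. The members, the 122 other pathway genes, the cell type markers and the motifs were chosen with earlier results of these data known. All members are accounted for; of the other pathway genes, up to 6 in each direction are named, and promoters are shown for 3 of the genes with the 3 largest differences in each comparison. Motif matches of further members were chosen after their values were seen. The code (Python 3.11.15, pandas 2.3.3) was tested on simulated data whose folds were known. Those folds were planted only in genes well above the floor on the control array. Genes below it there, such as Ccl2, Ccl7, Cxcl1 and Nfkbiz, were not covered. Alternatives covered scaling, the floor, the choice of probe set and the fold.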

Additional observations from a re-analysis of the deposited data

How the results depend on the processing

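No result for a gene past 2-fold changed direction under any alternative that measured it. Changing the floor cannot turn a sign, and the choice of probe set left the values of these genes unchanged. Only median scaling and quantile normalisation could have turned a direction, and not that of every gene. Nfkbiz and Ccl2 with FSK/PMA and Cxcl1 with NFIL3 were measured through 1 array, so that the floor fixed their direction. Their unchanged direction is therefore no sign of robustness. Of 11 such genes with FSK/PMA, 7 were past 2-fold in every alternative that measured them. Cx3cl1, Il4r, Il18 and Il10rb were not, at the higher floor described next. Of the 7, Ccl2 and Il1r1 were not measured at that floor. Of 3 with NFIL3, Cxcl1 and Ccl7 were past it in each alternative that measured them and Ccl2 was not. With a floor at the 75th percentile of signals (547), 5 genes were higher and 0 lower with FSK/PMA and 0 higher with NFIL3; there Cxcl1 and Ccl7 were not measured and Ccl2 had a log2 difference of 0.76. With FSK/PMA 14 genes were higher with a floor of 62.9 and 13 with no floor. With a floor of 62.9, and with no floor and log2(signal + 16), 5 genes were higher and 1 lower with NFIL3, Ccl20 and Vcam1 joining the higher genes and Cxcl12 being the lower one. At 1.5-fold, 6 were higher and 2 lower with NFIL3. Median scaling put Ripk2 past 2-fold, giving 1 lower gene with NFIL3. The median difference with FSK/PMA was 0.55 with median scaling, 0.53 with quantile normalisation, 0.52 with a floor of 62.9, 0.60 with the higher floor and 0.86 with no floor. With NFIL3 it was -0.13 with median scaling, which turned the sign of Cd14, Il1r1, Myd88, Nfkbia, Nfkbib, Relb and Tnip1; quantile normalisation turned that of Rela. Under the alternatives 56 single values moved by more than the technical SD and 356 did not. The 356 include values that could not move. Leaving out probe sets named _x_at or _s_at changed no member value, and averaging probe sets changed only Csf1, Irak1 and Traf6. Low signals and 1 array per group limit all dim chemokine values.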
